A study of Citrus sinensis with 4 samples.

Results

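A group of 37 sweet orange genes had a low level in 1 library, that of Bingtangcheng fruit at 70 days after full bloom. Their levels were higher in the other 3 libraries of the study. They were chosen from 28435 gene models with identifiers of the forms Cs and orange1.1t, out of 29036 models in the files, with Cs1g16150 left out beforehand. The choice used the measured values themselves. Each raw count was divided by its library total, scaled to counts per 1e6 fragments (CPM) and raised by 0.5, and a gene was taken where the 70-day Bingtangcheng value was the lowest. The third highest value then had to be at least 3 and at least 4 times the lowest, the second highest under 1.5 times the third, and the highest under 4 times the second. The low level in 70-day Bingtangcheng is therefore a description of the group and no finding.

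RNA came from the endocarp of sweet orange, Citrus sinensis, in the cultivars 'Dahongtiancheng' and 'Bingtangcheng', each at 50 and at 70 days after full bloom. No treatment was named. Each of the 4 combinations was 1 library, and the labels do not say how many fruits or trees went into it, so a difference between groups cannot be told apart from a difference between single libraries. Endocarp is the inner layer of the citrus fruit wall, from which the segment membranes and the juice sacs develop. Juice sac cells are dominated by a large vacuole, in which citric acid and sugars are stored while the fruit grows, and proton pumps of the vacuolar membrane keep that compartment acidic. The files pair the identifiers with no gene names, so no role is given here to any of the 37 genes, and markers of endocarp or of other tissues could not be checked.

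The 4 libraries held between 14040916 and 16445383 fragments, and 15788 to 16485 genes per library reached 10 fragments. Levels are given as CPM normalized by the trimmed mean of M-values (TMM), on which 1 fragment corresponded to between 0.0576 and 0.0668 CPM. Folds are ratios of these levels with a 95% exact counting interval in parentheses, which covers counting error only and not the spread between fruits. Where a library had 0 fragments, the fold was computed against 3 fragments in that library and is given as at least that value. Fragment counts are listed in the order 50-day Dahongtiancheng, 50-day Bingtangcheng, 70-day Dahongtiancheng and 70-day Bingtangcheng. In bulk tissue, fewer cells of a type and less RNA per cell cannot be told apart.

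The summed counts of the 37 genes were 23740, 20265, 30561 and 792. These were 0.146% (exact 95% binomial interval 0.144 to 0.148), 0.144% (0.142 to 0.146), 0.189% (0.187 to 0.191) and 0.00482% (0.00449 to 0.00516) of the fragments. Their median level stood at 10.7 CPM in both 50-day libraries, at 11.7 in 70-day Dahongtiancheng and at 0.401 in 70-day Bingtangcheng. Per kilobase of gene model the group's median was 9.22, 7.25, 9.73 and 0.401 CPM in that order of libraries. Over all genes with at least 10 fragments in some library this median was 12.2, 12.4, 11.6 and 11.5 CPM per kilobase. The group's median was thus the lower one in each library. The rule set a minimum on the third highest value that the wider set did not have to meet, so the sets are not alike.

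**Figure D1:**
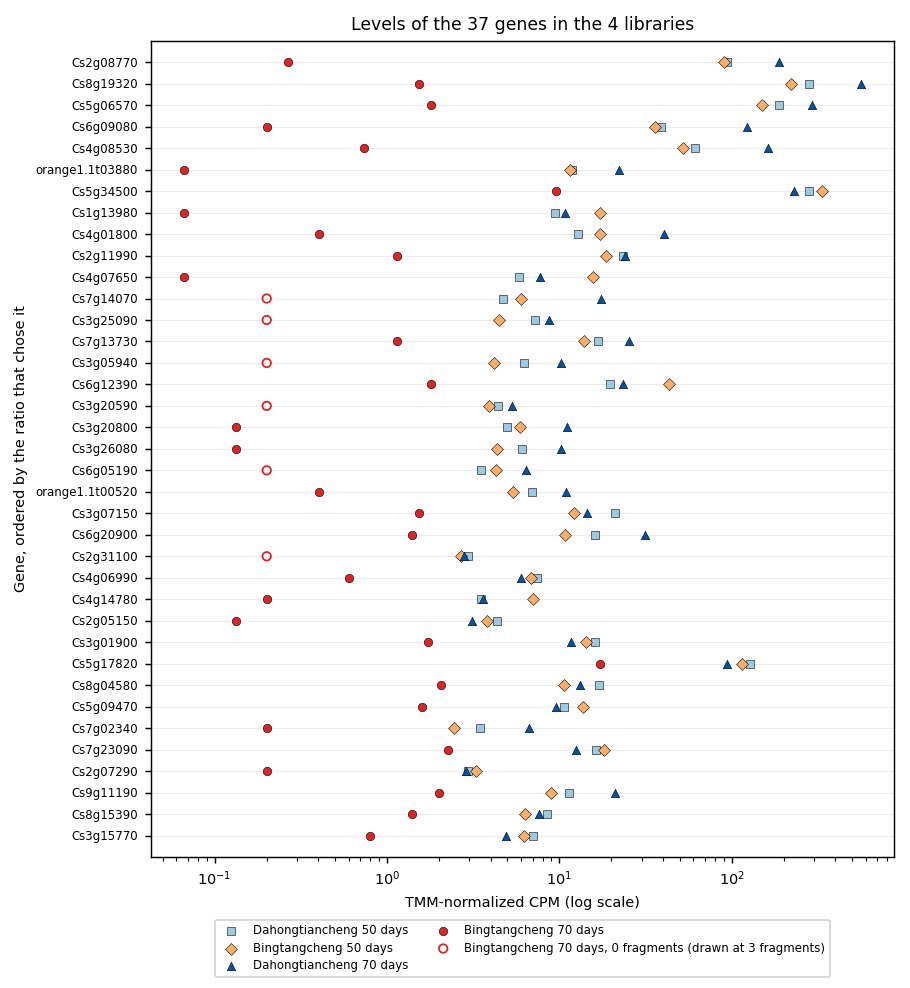
TMM-normalized CPM (horizontal log axis) of each of the 37 genes (vertical axis, ordered by the ratio that chose them) in the 4 libraries. Red circles are 70-day Bingtangcheng, open where the count was 0 and then drawn at 3 fragments. In each gene the red circle lies to the left of the other 3 libraries, as the choice of the genes requires.

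The 5 genes with the largest ratio of the third highest to the lowest value were abundant, which the added 0.5 favours, since it holds the ratio down in weak genes. By the fold against 50-day Bingtangcheng, weaker genes stood as high: Cs1g13980 (256-fold), Cs4g07650 (234-fold) and orange1.1t03880 (173-fold) exceeded Cs8g19320, Cs5g06570 and Cs4g08530 among the 5. Each of these weaker genes had 1 fragment in 70-day Bingtangcheng, with intervals from 45.6, 41.7 and 30.6. Those lower ends lie below the folds that were exceeded, so the order is not fixed beyond counting error. Cs2g08770 (chromosome 2, 5783292 to 5809772, plus strand) had 1639, 1398, 2817 and 4 fragments. Its level in 70-day Bingtangcheng was 336-fold (131 to 1234) below that of the same cultivar at 50 days and 702-fold (274 to 2578) below Dahongtiancheng at 70 days. The largest count of the whole group was in Cs8g19320 (chromosome 8, 21596984 to 21602088, minus strand), with 4877, 3443, 8407 and 23 fragments. That is 144-fold (95.7 to 227) and 364-fold (243 to 575) lower in the same order of comparisons. Both genes went from at least 1398 fragments in 3 libraries to at most 23 in the other.

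For Cs5g06570 (chromosome 5, 4065083 to 4066458, plus strand) the counts were 3291, 2335, 4382 and 27, with folds of 83.1 (56.9 to 126) and 162 (111 to 246). In Cs6g09080 (chromosome 6, 10947466 to 10949285, minus strand) 672, 559, 1854 and 3 fragments were counted, 179-fold (60.9 to 870) and 616-fold (210 to 2990) lower. The fifth was Cs4g08530 (chromosome 4, 5633613 to 5643011, minus strand), with 1065, 810, 2427 and 11 fragments, a 70.7-fold (39.3 to 142) and a 220-fold (123 to 441) difference. In all 5 the 70-day Dahongtiancheng library had the highest level and 50-day Bingtangcheng the third. Summed over these 5 genes, the counts were 11544, 8545, 19887 and 68. They supplied 65.1% of the group's fragments in 70-day Dahongtiancheng and 8.59% in 70-day Bingtangcheng.

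The other 32 genes summed to 12196, 11720, 10674 and 724 fragments, and a few of them were abundant as well. Cs5g34500 (chromosome 5, 35308666 to 35310622, plus strand) had 4877, 5204, 3472 and 144 fragments, 34.7-fold (29.4 to 41.2) below 50-day Bingtangcheng and 24.0-fold (20.3 to 28.6) below 70-day Dahongtiancheng. Unlike the 5 genes above it was highest in 50-day Bingtangcheng. In Cs5g17820 (chromosome 5, 17711939 to 17906307, minus strand) the counts were 2229, 1799, 1406 and 258, with folds of 6.70 (5.87 to 7.66) and 5.43 (4.75 to 6.23). This gene kept the highest level of the group in 70-day Bingtangcheng, 17.2 CPM. Averaged over the other 3 libraries and taken per kilobase, the levels of the most abundant genes were 194 CPM for Cs5g06570, 189 for Cs5g34500, 135 for Cs8g19320, 117 for Cs4g08530, 109 for Cs5g17820 and 86.6 for Cs2g08770.

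Of moderate abundance were Cs4g01800, Cs2g11990 and Cs6g12390. Cs4g01800 (chromosome 4, 617923 to 619012, minus strand) had 224, 267, 609 and 6 fragments, 42.7-fold (19.4 to 118) and 101-fold (46.2 to 277) lower. For Cs2g11990 (chromosome 2, 8982131 to 8983282, minus strand) 409, 291, 361 and 17 fragments gave folds of 16.4 (10.1 to 28.6) and 21.2 (13.0 to 36.7). Cs6g12390 (chromosome 6, 14000781 to 14001760, plus strand) was highest in 50-day Bingtangcheng, with 340, 672, 351 and 27 fragments, 23.9-fold (16.3 to 36.5) and 13.0-fold (8.75 to 19.9) lower.

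Several genes of lower level were at the limit of detection in 70-day Bingtangcheng. A single fragment was counted there for orange1.1t03880 (unplaced sequence, 59661310 to 59665599, plus strand; 207, 180 and 334 in the other libraries), Cs1g13980 (chromosome 1, 17122431 to 17124602, plus strand; 165, 267 and 163) and Cs4g07650 (chromosome 4, 4867127 to 4867603, minus strand; 101, 244 and 116). Against 50-day Bingtangcheng their levels were 173-fold (30.6 to 6865), 256-fold (45.6 to 10166) and 234-fold (41.7 to 9293) lower. Against 70-day Dahongtiancheng they were 333-fold (59.3 to 13188), 162-fold (28.8 to 6456) and 116-fold (20.3 to 4605) lower. With 1 fragment the size of these folds is poorly fixed, but the lower ends of the intervals lie above 20.

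No fragment at all was counted in 70-day Bingtangcheng for 6 genes, a count that allows up to 0.201 CPM. Cs7g14070 (chromosome 7, 9841898 to 9845072, plus strand), with 82, 93 and 261 fragments in the other libraries, was at least 29.8-fold below 50-day Bingtangcheng (interval from 23.7) and at least 86.7-fold below 70-day Dahongtiancheng (from 70.0). The remaining 5, named after their values were seen, were weaker. Cs3g25090 had 125, 70 and 131 fragments, Cs3g05940 108, 65 and 154, and Cs3g20590 77, 61 and 80. Cs6g05190 had 61, 67 and 96, and Cs2g31100 51, 42 and 42. Their levels were at least between 13.4-fold (Cs2g31100) and 22.4-fold (Cs3g25090) lower than at 50 days in Bingtangcheng. The bounds against 70-day Dahongtiancheng ran from 14.0-fold (Cs2g31100) to 51.2-fold (Cs3g05940). No other library had a count of 0 for any of the 37 genes.

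Between 2 and 6 fragments also remained in 70-day Bingtangcheng for Cs3g20800 (86, 92, 167 and 2), Cs3g26080 (105, 68, 153 and 2), Cs2g05150 (76, 59, 47 and 2), Cs4g14780 (61, 110, 54 and 3), Cs7g02340 (60, 38, 100 and 3), Cs2g07290 (51, 51, 43 and 3) and orange1.1t00520 (121, 84, 165 and 6). Their folds against 50-day Bingtangcheng lay between 12.2 (3.86 to 61.6, Cs7g02340) and 44.2 (11.9 to 370, Cs3g20800). These genes had at most 167 fragments in any library, and the depth limits how far their reduction can be followed.

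A residual level was clear in the rest. Counts were 129, 107, 90 and 9 for Cs4g06990, 291, 216, 379 and 17 for Cs7g13730, and 281, 167, 474 and 21 for Cs6g20900. They were 366, 190, 218 and 23 for Cs3g07150, 186, 213, 143 and 24 for Cs5g09470, and 279, 222, 176 and 26 for Cs3g01900. For Cs8g04580 (297, 165, 197 and 31) and Cs7g23090 (282, 282, 187 and 34) the 70-day Bingtangcheng counts were higher still. Across these 8 genes the fold against 50-day Bingtangcheng ran from 5.11 (3.47 to 7.77, Cs8g04580) to 12.2 (7.45 to 21.3, Cs7g13730), less than in each of the 5 genes with the largest ratio.

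Just inside the limit of 4 stood Cs3g15770 (123, 97, 74 and 12 fragments), Cs8g15390 (148, 98, 115 and 21) and Cs9g11190 (198, 139, 316 and 30), where the third highest value was 4.12, 4.21 and 4.47 times the lowest. Just outside were Cs2g19680 (5147, 8651, 4967 and 1256), which missed the limit by less than 0.01, Cs4g11890 (317, 233, 260 and 60), at 3.99, and Cs9g15120 (828, 814, 940 and 208), at 3.91. The limit therefore cuts through a continuous range. Among genes that met the other clauses, 7 had a ratio from 4 to under 5 and 17 a ratio from 3 to under 4. The upper end was sparser, with 16 genes at 10 or more and 4 at 50 or more.

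Between a pair of libraries, a gene counted as higher or lower if 3 conditions were met: at least 10 fragments and 1 CPM in either library, a difference of at least 2-fold (log2 ratio with a prior count of 2), and a 99% counting interval without 1. All 37 genes reached the floor in each of the 4 pairs of libraries that share a stage or a cultivar. In Bingtangcheng, 37 of 37 were lower at 70 than at 50 days, where 13.2% of 16199 genes were lower and 7.94% higher. At 70 days, 37 of 37 were lower in Bingtangcheng than in Dahongtiancheng, against 7.21% of 15895 genes lower and 5.64% higher. Both counts follow from the choice of the genes. The median log2 ratio of the group was -4.46 between the stages in Bingtangcheng and -4.40 between the cultivars at 70 days, or -4.11 and -4.37 with counts of 0 set to 3 fragments. Over all genes tested the medians were -0.01 and 0.02.

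The rule bounded the ratios among the other 3 libraries. It also required the 70-day Dahongtiancheng value to be at least 4 times that of 70-day Bingtangcheng. Genes about as low in 70-day Dahongtiancheng as in 70-day Bingtangcheng were thus left out. The direction between the stages in Dahongtiancheng was therefore not fully free, and the numbers are a description. From 50 to 70 days in Dahongtiancheng, 5 of the 37 genes were higher and 0 lower, where 9.57% of 16211 genes were higher and 12.6% lower. The 5 were Cs7g14070, 3.68-fold (2.86 to 4.78), Cs6g09080, 3.19-fold (2.92 to 3.49), Cs4g01800, 3.15-fold (2.69 to 3.68), Cs4g08530, 2.64-fold (2.45 to 2.84), and Cs3g20800, 2.25-fold (1.72 to 2.95). Cs2g08770 and Cs8g19320 fell just short of the limit, both at 1.99-fold, with intervals of 1.87 to 2.12 and 1.93 to 2.07. Among these 7 genes, then, the level was higher at 70 days in 1 cultivar and reduced in the other. The ratios ran on below them, with Cs6g20900 at 1.95-fold (1.68 to 2.27) and Cs7g02340 at 1.93-fold (1.39 to 2.70). The intervals of both, and of further genes such as orange1.1t03880, at 1.87-fold (1.57 to 2.23), included 2. The 7 are therefore not set apart from the other genes.

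The remaining genes differed less between the stages in Dahongtiancheng. The ratio was above 1 for 24 of the 37 genes and below 1 for 13, with a median log2 ratio of 0.27 (quartiles -0.17 and 0.89) against 0.00 (quartiles -0.48 and 0.43) over all 16211 genes. With libraries scaled to their totals, which moved the median of all genes by -0.20, the ratio was above 1 for 21 and below 1 for 16. At the lower end were Cs3g07150, at 0.689 (0.580 to 0.817), and Cs3g15770, at 0.696 (0.515 to 0.936) of the 50-day level.

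**Figure D2:**
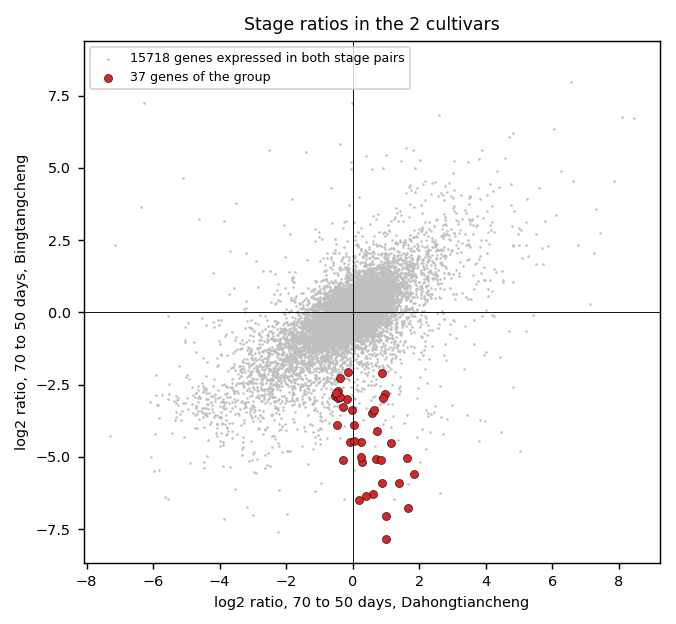
Log2 ratio of 70 to 50 days in Dahongtiancheng (horizontal) and Bingtangcheng (vertical) for 15718 genes expressed in both stage pairs (grey) and the 37 genes of the group (red). The red points lie at -2.07 or lower on the vertical axis by the choice of the genes, where grey points also occur, and spread from -0.53 to 1.85 on the horizontal axis.

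The direction in Dahongtiancheng was also set beside the ratio that chose the genes, the third highest value over the lowest. Of the 16 genes in which the third highest value was at least 10 times the lowest, 15 had a higher level at 70 than at 50 days in Dahongtiancheng, with a median ratio of 1.60. Cs5g34500, at 0.824 (0.789 to 0.861), was the exception. Of the 13 genes under 6 times, 3 had a higher level at 70 days, with a median ratio of 0.807. The 8 genes in between numbered 6 with a higher level. With total-count scaling the numbers were 13 of 16, 2 of 13 and 6 of 8. The added 0.5 holds this ratio down in weak genes, and the mean level over the other 3 libraries had a median of 22.8 CPM in the first band and 7.49 in the last. The bands therefore do not rank the genes by their reduction within Bingtangcheng: Cs4g14780 was 35.2-fold and Cs2g05150 28.3-fold below the 50-day level and fell in the last band, and Cs7g13730 was 12.2-fold below and fell in the first. The bands of 6 and 10 were set after the values were seen, and the Dahongtiancheng values entered both measures, so this is a description without a test.

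Among the 37 genes the highest of the 4 values, on the scale that chose them, was in 70-day Dahongtiancheng for 19, in 50-day Dahongtiancheng for 10 and in 50-day Bingtangcheng for 8. Of the 4460 eligible genes that were lowest in 70-day Bingtangcheng and whose next higher values met the minimum of 3, 23.2% were highest in 70-day Dahongtiancheng, 25.9% in 50-day Dahongtiancheng and 50.9% in 50-day Bingtangcheng. On the TMM scale 20, 9 and 8 of the 37 genes were highest in these libraries, and the shares of all 2993 such genes were 33.2%, 27.6% and 39.2%. On both scales 70-day Dahongtiancheng was the most frequent library of the highest level in the group, and 50-day Bingtangcheng in the wider set. The wider set did not have to meet the 4-fold limit or the clauses on the higher values. The same values chose the group, so this contrast is a description.

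How far the cultivars could differ at 50 days was limited by the clauses on the higher values. For the 19 genes highest in 70-day Dahongtiancheng the limit was under 1.5-fold, on the scale that chose them. As TMM-normalized folds, Dahongtiancheng stood above Bingtangcheng 1.60-fold (1.19 to 2.18) in Cs3g25090 and 1.51-fold (1.24 to 1.84) in Cs6g20900. The level in Bingtangcheng was higher for 2 of the 37 genes and lower for 0, while 3.62% of 16139 genes were higher and 2.73% lower. The 2 were Cs4g07650, with a Bingtangcheng level 2.69-fold (2.13 to 3.43) that of Dahongtiancheng, and Cs6g12390, at 2.20-fold (1.93 to 2.52). Of the group, 29 genes (78.4%) lay within 1.5-fold and 35 (94.6%) within 2-fold on the log2 scale with the prior count, against 84.9% and 92.9% of all genes tested. The ratio of Bingtangcheng to Dahongtiancheng was above 1 for 12 genes and below 1 for 25, with a median log2 ratio of -0.17 (quartiles -0.35 and 0.25) against 0.00 (quartiles -0.17 and 0.19) over all genes.

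In the 5 genes with the largest ratio the 50-day libraries were the second and the third highest. The rule itself therefore held them under 1.5-fold apart on the scale that chose the genes. Dahongtiancheng exceeded Bingtangcheng 1.27-fold (1.22 to 1.33) in Cs8g19320, 1.26-fold (1.20 to 1.33) in Cs5g06570 and 1.18-fold (1.08 to 1.29) in Cs4g08530. For Cs6g09080, 1.08-fold (0.962 to 1.21), and Cs2g08770, 1.05-fold (0.978 to 1.13), the counting interval included 1. In Cs4g01800, Cs5g34500 and Cs1g13980 the order was the other way, with Dahongtiancheng at 0.752 (0.627 to 0.902), 0.840 (0.808 to 0.874) and 0.554 (0.454 to 0.675) of the Bingtangcheng level.

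**Figure D3:**
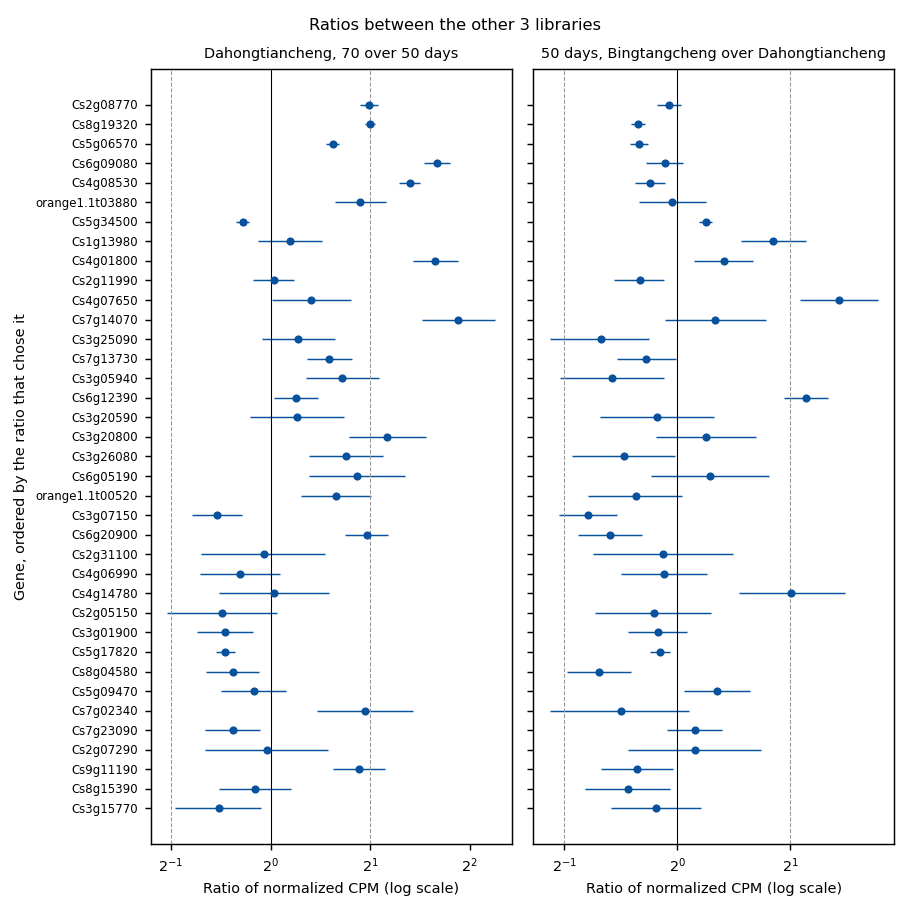
Ratio of normalized CPM (horizontal log axis) for each of the 37 genes, with 95% exact counting intervals as bars, between the stages in Dahongtiancheng (left) and between the cultivars at 50 days (right). Dashed lines mark a 2-fold difference in either direction. Points at the top of the left panel lie mostly to the right of 1, and 29 of the points in the right panel are within 1.5-fold of 1.

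The same rule was applied with each of the other libraries as the lowest. It found 37 genes for 70-day Bingtangcheng, 0.13% of the 28435 eligible genes, against 13 (0.0457%) for 50-day Bingtangcheng, 9 (0.0317%) for 70-day Dahongtiancheng and 1 (0.00352%) for 50-day Dahongtiancheng. With TMM scaling the counts were 34 for 70-day Bingtangcheng, 11 for 50-day Bingtangcheng, 14 for 70-day Dahongtiancheng and 1 for 50-day Dahongtiancheng. With a fold limit of 2 in place of 4 the order of the 70-day libraries turned, with 132 genes for Bingtangcheng and 141 for Dahongtiancheng. The median ratio of the third highest to the lowest value was 8.60 in the 37 genes, 6.99 in the 13 and 5.83 in the 9. A ratio over 10 was reached by 16, 3 and 2 genes, and the highest ratios were 135, 18.3 and 14.0. With 1 library per group it cannot be told apart whether the larger number belongs to the cultivar at that stage or to that library.

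The clauses on the higher values removed 14 of the 51 genes that met the clauses on the lowest and the third highest values. Of these, 12 were left out because the second highest was at least 1.5 times the third. The other 2 were left out because the highest was at least 4 times the second. The library with the highest level was 70-day Dahongtiancheng for 7 of these 14. By its identifier form, none of 600 Citrus_newGene models could enter, although 4 of them met the numeric clauses. Cs1g16150, which the rule left out by name, would not have met them, with 3707, 250, 24911 and 3955 fragments and its lowest level in 50-day Bingtangcheng.

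Position was not used by the rule. The 37 genes lay on all 9 numbered chromosomes and on unplaced sequence. Chromosome 3 held 8, chromosomes 2 and 4 held 5 each, and chromosomes 1 and 9 held 1 each. As a share of the genes with at least 10 fragments in some library this was 0.454% on chromosome 3, 0.391% on chromosome 4 and 0.0606% on chromosome 1, against 0.219% of all 16916. Identifiers of the form orange1.1t gave 2 of 2421 expressed genes (0.0826%), and those of the form Cs gave 35 of 14495 (0.241%). With so few genes per chromosome these shares rest on small counts. No source used here names the genome build of these positions.

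No gene of the group had another within 50 kb. Of the expressed genes, 1.66% lay that close to one of them. A count of 0 among 37 genes is near that share, so it does not set the group apart. The closest pair, Cs3g20590 and Cs3g20800, started 141 kb apart. The 3 expressed genes on each side of the 35 genes on numbered chromosomes, 210 in all, had a median log2 ratio in 70-day Bingtangcheng of -0.05 against 70-day Dahongtiancheng and 0.02 against 50-day Bingtangcheng. Of these neighbours, 9.52% were lower than in 70-day Dahongtiancheng and 12.4% lower than in 50-day Bingtangcheng, near the 7.21% and 13.2% of all genes. Lower in both comparisons were 7 neighbours, 3.33%, against 369 of 16916 expressed genes, 2.18%. The 369 include all 37 genes of the group, so the share among other genes was smaller. The neighbours also include Citrus_newGene models, which the 16916 leave out.

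The 7 are named here after their values were seen. Cs6g09090 (chromosome 6, 10950088 to 10951487, minus strand), next to Cs6g09080 and on the same strand, had 262, 200, 1145 and 9 fragments. It missed the group because its highest value was over 4 times the second. Cs8g19290 (chromosome 8, 21576153 to 21586415), next to Cs8g19320, had 35, 81, 507 and 4 fragments. In Cs3g26090, next to Cs3g26080, the counts were 109, 177, 1466 and 60, and in Cs2g31060, near Cs2g31100, 26, 66, 682 and 9. All 4 were highest in 70-day Dahongtiancheng, at more than 4 times the next library, a margin that the rule does not admit. Of the 4, only Cs6g09090 met the clauses on the lowest and the third highest values. The counts of the other 3 were 849, 1287, 1544 and 303 in Cs2g07330 (near Cs2g07290), 352, 1344, 1156 and 166 in Cs3g20840 (near Cs3g20800), and 117, 83, 82 and 36 in Cs6g12370 (next to Cs6g12390).

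**Figure D4:**
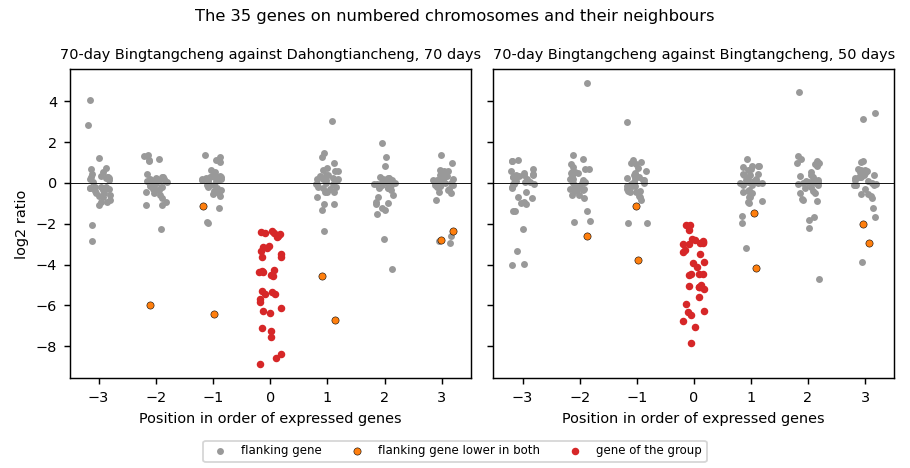
Log2 ratio of 70-day Bingtangcheng to 70-day Dahongtiancheng (left) and to 50-day Bingtangcheng (right) for the 35 genes on numbered chromosomes (position 0, red) and the 3 expressed genes on each side. Grey neighbours centre on 0, and the 7 neighbours lower in both comparisons are orange.

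The median listed length of the group's gene models was 1227 bases (range 345 to 4290), against 1579 over the expressed genes and 1677 over expressed genes within the group's range of levels. The quartiles were 1007 and 1865 bases, compared with 1011 and 2377 over the expressed genes. In 7 of the 37 (18.9%, against 15.4% of the expressed genes) the model length equalled the genomic span, so that these models contained no intron.

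Overlapping models touched 5 of the genes. Cs2g08770 overlaps Cs2g08800 on the same strand, which had 4519, 3841, 3725 and 4886 fragments and was thus not reduced where Cs2g08770 was, and also Cs2g08780, with 105, 88, 88 and 45. Within Cs4g08530 lies Cs4g08540 on the opposite strand, with 24, 16, 8 and 0 fragments. Cs5g17820 overlaps 10 other models, of which Cs5g17570 on the opposite strand had 2405, 2002, 3811 and 3133 fragments and the others 0. Cs3g05940 lies within the span of Cs3g05880 (17, 16, 18 and 16), and Cs7g02340 shares its end with Cs7g02350 on the other strand (86, 136, 61 and 71). No source used here states whether the libraries were stranded, so fragments of overlapping models cannot be assigned with certainty.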

How the data were processed

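Poly(A) RNA of endocarp was sequenced in 4 libraries, 1 per group. Each deposited file lists for every gene the raw number of fragments (whole-number counts per the file headers), the authors' rescaled count (a normalized signal, not used here) and FPKM, which the authors computed in a way not stated and which served only as an alternative. Aligner, build, annotation and strandedness: not given in the sources used here. A header line recurring 1 time in each file was dropped.

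The genes, thresholds and groupings were chosen with earlier results of these data known. Of the identifiers, 0 matched the 29331 genes of the NCBI table for the DVS_A1.0 assembly, so planned gene lists and tissue markers could not be filled and no sequences are shown. TMM factors came from edgeR 4.0.16 in R 4.3.3 and size factors, as an alternative, from DESeq2 1.42.0. Counting intervals were exact conditional (Clopper-Pearson) ones from scipy 1.17.1. With 1 library per group no test between conditions was made. Scripts were tested on simulated data. Genes named by rule were the 12 with the largest ratio, the 10 with the highest mean level and 3 on each side of the limit; as no genes were neighbours, that clause named none, and all other genes of the group were added afterwards for completeness.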

Additional observations from a re-analysis of the deposited data

Results flagged for a closer look

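All 37 genes were screened. In 5 of them, Cs6g09080, Cs4g08530, Cs4g01800, Cs7g14070 and Cs3g20800, the stages differed in opposite directions in the cultivars, beyond counting error and at least 2-fold in each. That number is on the TMM scale. With libraries scaled to their totals, 4 genes of the group were higher at 70 days in Dahongtiancheng. The log2 ratio of 70 to 50 days in Dahongtiancheng was 1.67 for Cs6g09080, 1.40 for Cs4g08530, 1.64 for Cs4g01800, 1.85 for Cs7g14070 and 1.15 for Cs3g20800, while all 5 were lower at 70 days in Bingtangcheng. The lower level in Bingtangcheng chose these genes. The difference between the cultivars was not tested, since each group has 1 library.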

How the results depend on the processing

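The number of genes chosen was 37. It was 34 with TMM or median-of-ratios scaling (33 shared with the 37), 44 with the deposited FPKM (27 shared) and 45 with no minimum. It moved by more than 1.5 times with an added constant of 2 (15 genes), a minimum of 10 (19), a limit of 8 (20) and a limit of 2 (132). For 50-day Dahongtiancheng the rule found 1 gene, against 6 with FPKM, 0 with the constant, the minimum or the limit of 8, 2 with no minimum and 17 with the limit of 2. The 13 genes for 50-day Bingtangcheng became 20 with FPKM, 5 with the constant, the minimum or the limit of 8, and 41 with the limit of 2. The 9 for 70-day Dahongtiancheng became 14 with TMM or median-of-ratios scaling, 2 with the constant, 1 with the minimum, 3 with the limit of 8 and 141 with the limit of 2. At a limit of 2, then, 70-day Dahongtiancheng gave more genes than 70-day Bingtangcheng.

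A 4-fold instead of a 2-fold threshold left 419 higher and 1013 lower genes between the stages in Bingtangcheng, 214 and 499 between the cultivars at 70 days, 602 and 889 between the stages in Dahongtiancheng, and 160 and 156 between the cultivars at 50 days. It left 0 of the 5 genes of the group higher in Dahongtiancheng at 70 days and 0 of the 2 higher in Bingtangcheng at 50 days. The former number, 5, was 4 with total counts, 7 with median-of-ratios scaling and 8 with FPKM. Within 200 kb, 2 genes had another of the group nearby. No direction of a group median reversed under any alternative run. The same held for genes past the threshold among those named by rule. Other single genes were not checked for a reversal. No paired analysis was possible because each group has 1 library. Depth limits the folds of genes with under 10 fragments in 70-day Bingtangcheng.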
